A study of Mus musculus with 4 samples.

Results

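The immunoglobulin light chain segments are the probe sets of the array whose gene symbol names a kappa segment or a variable, joining or constant segment of the lambda locus. The rule used the symbol only and no measured value, and it found 101 of the 32202 probe sets that carry a gene symbol. Gene expression was measured in colon of Balb/c mice given drinking water for 45 days, either plain (control, arrays 1 and 2) or with 5% maltodextrin, a starch-derived food additive (arrays 3 and 4). Each sample of total RNA was read on 1 GeneChip Mouse Gene 2.0 ST array, and each probe set gave a log2 intensity that combines its probes. Nothing in the labels tells whether the samples in a group are separate mice, so p-values here rest on a spread between samples that may be only technical. The segments of the array are annotated on the C57BL/6J reference (GRCm38), while the mice were Balb/c. How far strain differences in these segments alter the intensities was not tested.

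Each antibody is built of paired heavy and light chains, and each light chain is either kappa or lambda. A developing B cell makes its light chain gene by joining a variable (V) segment, chosen from many, to a joining (J) segment, and splicing then attaches the constant (C) segment. Each B cell clone therefore transcribes mainly its own rearranged V segment, and the transcripts of all kappa clones carry the same constant segment. Plasma cells, the antibody-secreting descendants of B cells, hold far more immunoglobulin mRNA than resting B cells, and in the gut wall most of them secrete IgA. In the mouse most light chains are kappa, and the lambda locus is small.

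The 101 probe sets comprised 93 for kappa variable segments of 18 families, 3 for kappa joining segments (Igkj1, Igkj3 and Igkj5), 1 for the kappa constant segment and 4 for lambda (Iglc2, Iglv2 and a pair for Iglv1). The families are numbered after the stem Igkv, so that Igkv4-55 belongs to family 4. The deposited annotation gave a GRCm38 position for 99 of them. At 95 of these positions the RefSeq gene table (GRCm38.p6) held the segment that the file names, and at 4 it held another. The probe set named Igkv4-53 at the 3′ end of the locus (transcript cluster 17459423) lay on Igkc, the kappa constant segment, at chromosome 6 from 70726435 to 70726754. The other 3 lay on Igkv6-23 (17467534), Igkv6-15 (17467548) and Igkv9-120 (17459321), and all 4 are called here by the segment at their position. The kappa variable segments lie on chromosome 6, from 22.9 kb to 3171 kb from Igkc, and each holds a leader exon, a short intron and the variable exon. The lambda segments lie on chromosome 16, with Iglv1 from 19085017 to 19085460, Iglc2 from 19198536 to 19198852 and Iglv2 from 19260403 to 19260844. Related V segments are alike in sequence: the annotation marks 56 of the 101 probe sets as able to match several transcripts and 45 as matching 1 only. Values of the first kind cannot be assigned to 1 segment with certainty.

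One array stood apart before any comparison. Control 2 carried pancreatic acinar transcripts, with a median log2 intensity of 9.06 over 8 marker genes against 4.71, 4.80 and 4.66 on control 1, maltodextrin 3 and maltodextrin 4. Control 2 was also below control 1 for 83 of the 101 light chain probe sets, where 57.0% of all named probe sets were. It was the lowest of the 4 arrays for 79 of the 101, against 29.9% of all named probe sets, and the highest for 0. Whether the pancreatic RNA had a part in the light chain levels was not tested. The median differences of the light chain, kappa variable and lambda probe sets, and differences of some named segments, are also given without control 2. Counts by family, pseudogene label, transcript match and position, and the heavy chain and marker list results, are given with all 4 arrays only. Control 2 was the lowest array for 7 of the 11 plasma cell genes and 75 of the 112 heavy chain probe sets described below. Array medians over the named probe sets were close, from 5.26 to 5.39. As a guide to background, the 95th percentile of the mean intensity of 1515 olfactory, vomeronasal and taste receptor probe sets was 5.89.

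Light chain segments were higher on the maltodextrin arrays across most of the set. A nominal criterion, namely a change of 1.5-fold or more together with an unadjusted limma p under 0.05, was met by 71 of the 101 probe sets in the higher direction and by 0 in the lower. Among all named probe sets 8.51% met it as higher and 3.56% as lower. Both maltodextrin arrays lay above both control arrays for 86 of the 101, against 25.6% of all named probe sets. The median difference, maltodextrin minus control, was 2.20 on the log2 scale, a 4.61-fold ratio, beside a median of -0.037 over all named probe sets. It was 1.67 without control 2 and 2.57 without control 1. With the methods' t-test, which takes each probe set's spread from its own 4 arrays alone, 33 of the 101 met the criterion as higher, against 3.92% of all named probe sets. Among the constant, joining and lambda segments and the brightest or most different kappa variable segments given below, Igkc, Igkj5, Iglc2, Iglv2, Igkv10-96, Igkv1-110, Igkv4-72, Igkv7-33 and Igkv1-122 met the criterion by limma but not by that test. The differences ranged from -0.23 to 5.72, with 99 above 0 and 2 below. No named probe set passed an adjusted p of 0.05 by limma (0 of 32202, with 4698 at an unadjusted p under 0.05; 0 also by the methods' t-test), and the adjusted p-values of the light chain probe sets ran from 0.191 to 0.964. In whole tissue, a change in the number of cells of a type and a change in RNA per cell cannot be told apart.

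Igkc, the segment shared by all kappa transcripts, had log2 intensities of 13.57 and 13.06 on the control arrays (1, then 2, here and below) and of 13.95 and 14.05 on the maltodextrin arrays (3, then 4). Both maltodextrin arrays were above both controls. The difference was 0.68 (SE 0.24), a 1.61-fold ratio, with a limma adjusted p of 0.320, and it was 0.43 without control 2 and 0.93 without control 1. It met the nominal criterion with all 4 arrays, but not without control 2, maltodextrin 3 or maltodextrin 4, and not after repeated quantile normalization, where it was 0.58. Igkc stood near the top of the range of each array: the brightest probe set of any gene was only 0.48, 1.02, 0.21 and 0.31 above it, in the order of the arrays. Just 4 probe sets on maltodextrin 3 and 2 on maltodextrin 4 were brighter, against 16 on control 1 and 36 on control 2. On both maltodextrin arrays Igkj1 and Igkj5 were among the brighter ones. The brightest probe set was Igkj1 on maltodextrin 3 (14.15) and Igkj5 on maltodextrin 4 (14.37). Whether the ceiling of the scale reduced the differences of Igkc, Igkj1 and Igkj5 was not tested.

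The joining segments are stretches of 38 bases between the V segments and Igkc. The probe set of Igkj1 matches 1 transcript only, while those of Igkj3 and Igkj5 can match several. Igkj1 was 13.30 and 12.77 on the control arrays and 14.15 and 14.25 on the maltodextrin arrays, a difference of 1.16 (SE 0.24, limma adjusted p 0.249). Igkj5 was 13.22 and 12.29 against 14.03 and 14.37, a difference of 1.44 (SE 0.36, limma adjusted p 0.268). For both, the 4 arrays were separated by group, the nominal criterion was met, and the lowest value was that of control 2. Without maltodextrin 4 the criterion was no longer met by Igkj5. Igkj3, a joining segment that is not used in functional kappa chains, was much dimmer, with 8.45 and 7.64 on the controls and 7.97 and 8.72 on the maltodextrin arrays. Its groups overlapped, its difference was 0.30 (SE 0.40, limma adjusted p 0.740), and without control 2 it was -0.10.

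**Figure D1:**
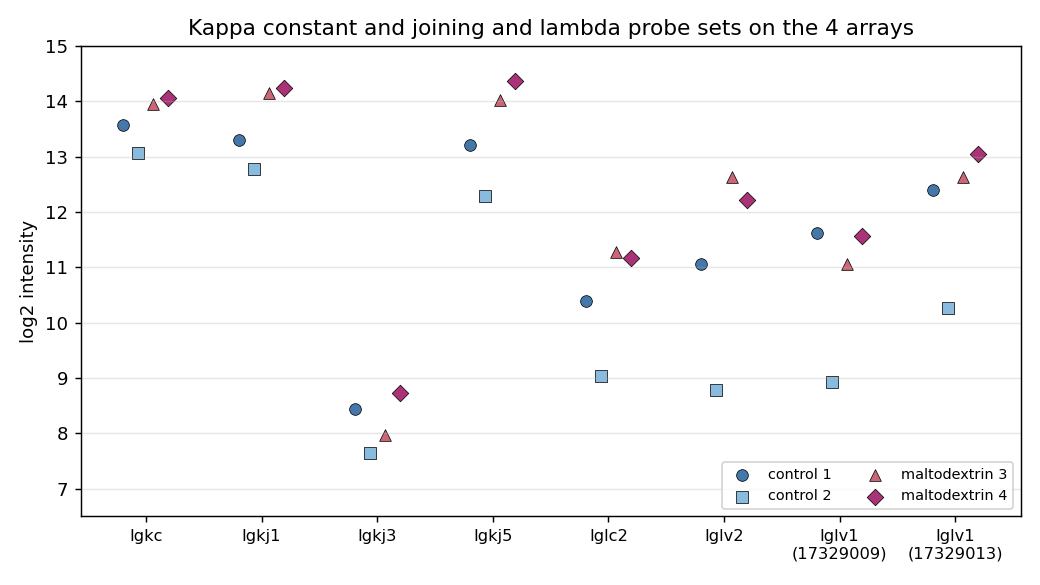
Log2 intensity (vertical axis) of the kappa constant, kappa joining and lambda probe sets on each of the 4 arrays, with 1 point per array. Both maltodextrin points lie above both control points except for Igkj3 and for Iglv1 probe set 17329009, and control 2 is the lowest point of all 8 probe sets.

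Of the light chain classes, the lambda segments had the widest spread between the controls, with a median gap of 2.20 against 0.74 for kappa variable segments. The probe sets of Iglv2 and of Iglv1 with a position (17329013) can match several transcripts, so their values cannot be assigned to 1 segment with certainty. Those of Iglc2 and the other Iglv1 probe set (17329009) match 1 only. Iglc2, the constant segment used with Iglv2, was 10.39 and 9.04 on the control arrays against 11.27 and 11.16 on the maltodextrin arrays. The difference was 1.502 (SE 0.48, limma adjusted p 0.305), 0.83 without control 2 and 2.18 without control 1. Iglv2, a lambda variable segment, was 11.06 and 8.79 against 12.62 and 12.21, a difference of 2.49 (SE 0.78, limma adjusted p 0.303), or 1.36 without control 2. Both segments were separated by group and met the nominal criterion, but neither did without maltodextrin 3 or without maltodextrin 4. Iglv1, the variable segment of most mouse lambda chains, had a probe set with a position (17329013) at 12.39 and 10.27 against 12.63 and 13.05. Its difference of 1.51 (SE 0.73, limma adjusted p 0.411) fell short of the criterion and was 0.45 without control 2. The other Iglv1 probe set (17329009), which has no position and which the annotation also links to a lambda constant region transcript, was 11.62 and 8.94 against 11.06 and 11.57. Its groups overlapped, and its difference of 1.04 (SE 0.91, limma adjusted p 0.612) was -0.30 without control 2. The controls were over 2 log2 units apart for 3 of the 4 lambda probe sets, as for 1.71% of all named probe sets, and the maltodextrin arrays for 0. Without control 1, all 4 lambda probe sets met the criterion. The median lambda difference was 1.51, and it was 0.64 without control 2 and 2.48 without control 1.

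The kappa variable segments made up the bulk of the set. Of their 93 probe sets, 66 met the nominal criterion as higher and 0 as lower, and 80 had both maltodextrin arrays above both controls. Their median log2 intensity was 7.44 on control 1, 6.65 on control 2, 9.43 on maltodextrin 3 and 9.92 on maltodextrin 4. The median difference was 2.29, a 4.89-fold ratio, and it was 1.80 without control 2. Without control 2 the higher count was 60 of 93, where 9.29% of all named probe sets were higher.

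The 8 brightest kappa variable probe sets were Igkv10-96, Igkv1-117, Igkv1-110, Igkv4-55, Igkv4-72, Igkv1-135, Igkv10-94 and Igkv3-5. Igkv10-96 was 12.39 and 11.65 on the controls and 13.72 and 13.29 on the maltodextrin arrays, a difference of 1.49 (SE 0.33, limma adjusted p 0.251). Igkv1-117 was 10.67 and 9.33 against 13.48 and 13.64, a difference of 3.55 (SE 0.48, limma adjusted p 0.224) that kept between 2.88 and 4.22 with any array left out. It was the largest of the 8, and its probe set matches 1 transcript only, the only one of the 8 that does. Igkv4-55 was 10.59 and 9.96 against 12.53 and 12.84, with a difference of 2.41 (SE 0.28). Igkv3-5 was 10.04 and 9.30 against 12.05 and 12.06, with a difference of 2.39 (SE 0.30), and Igkv10-94 was 10.01 and 9.89 against 12.21 and 11.87, with a difference of 2.09 (SE 0.21). In these 5 segments the nearest arrays of the 2 groups were farther apart than the arrays within either group.

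Igkv4-72 differed by 2.06 (SE 0.37), from 10.74 and 9.76 on the controls to 12.40 and 12.24. There too the nearest arrays of the 2 groups were farther apart than the arrays within either group. In Igkv1-110 and Igkv1-135 the controls were over 2 log2 units apart, and the size of the difference rested in part on control 2. Igkv1-110 was 11.49 and 9.46 on the controls and 12.52 and 13.34 on the maltodextrin arrays, and its difference of 2.46 (SE 0.74) was 1.44 without control 2. It met the nominal criterion, though not without maltodextrin 4. Igkv1-135 was 11.49 and 9.45 against 11.58 and 12.41. Control 1 almost reached maltodextrin 3 there, and the difference of 1.53 (SE 0.74, limma adjusted p 0.413) was 0.51 without control 2 and did not meet the nominal criterion except without control 1.

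The largest differences were measured from near background. The control means of the 8 kappa variable probe sets with the largest positive differences lay between 4.35 and 6.07, and 7 of the 8 were below the background guide of 5.89. In 5 of the 8 both maltodextrin arrays agreed on a high level. Igkv14-126 was 4.40 and 4.62 on the controls and 10.33 and 9.31 on the maltodextrin arrays, a difference of 5.30 (SE 0.38, limma adjusted p 0.191). Igkv6-23 was 4.01 and 4.70 against 9.31 and 8.90, a difference of 4.75 (SE 0.31, limma adjusted p 0.191). Igkv12-41 was 5.60 and 5.27 against 9.37 and 10.80, a difference of 4.65 (SE 0.51, limma adjusted p 0.210). Igkv6-15 differed by 4.09 (SE 0.30) and Igkv14-111 by 4.04 (SE 0.53). With any array left out these 5 differences stayed between 3.36 and 5.82. Probe sets of Igkv14-126, Igkv12-41 and Igkv14-111 match 1 transcript only, and those of Igkv6-23 and Igkv6-15 match several.

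For the other 3 of the 8 a single maltodextrin array carried most of the difference. Igkv7-33 was 4.57 and 4.49 on the controls, 7.37 on maltodextrin 3 and 13.13 on maltodextrin 4. Its difference of 5.72 was the largest of all named probe sets, with an SE of 1.90 (limma adjusted p 0.314), and was 2.84 without maltodextrin 4. It met the nominal criterion with all 4 arrays but not without either control. Igkv2-112 was 5.90 and 5.73 on the controls, 7.30 on maltodextrin 3 and 13.03 on maltodextrin 4. Its difference of 4.35 (SE 1.89, limma adjusted p 0.380) did not meet the nominal criterion with all 4 arrays, though it did without either maltodextrin array, and was 1.49 without maltodextrin 4. Igkv1-122 went the other way, with 4.58 and 4.84 on the controls, 11.60 on maltodextrin 3 and 7.69 on maltodextrin 4. Its difference was 4.94 (SE 1.30, limma adjusted p 0.275), and 2.98 without maltodextrin 3.

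The 2 maltodextrin arrays thus differed widely for a part of the V segments, as did the control pair described below. Over the 93 kappa variable probe sets the median gap was 0.59 between the maltodextrin arrays and 0.74 between the controls. The maltodextrin arrays were over 2 log2 units apart for 9 of the 93, against 0.422% of all named probe sets. Igkv3-9, Igkv8-28, Igkv7-33, Igkv14-100 and Igkv2-112 were higher on maltodextrin 4, and Igkv4-90, Igkv2-116, Igkv1-122 and Igkv9-123 on maltodextrin 3. Of these 9 names, those other than Igkv7-33, Igkv2-112 and Igkv1-122 were chosen after their values were seen. Igkv9-123 had 1 maltodextrin array on each side of the controls, with 8.14 and 6.997 on the controls, 9.02 on maltodextrin 3 and 6.36 on maltodextrin 4. Its difference of 0.12 was -1.21 without maltodextrin 3 and 1.45 without maltodextrin 4. Across all 93, maltodextrin 4 was the higher of the pair for 60 and maltodextrin 3 for 33.

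**Figure D2:**
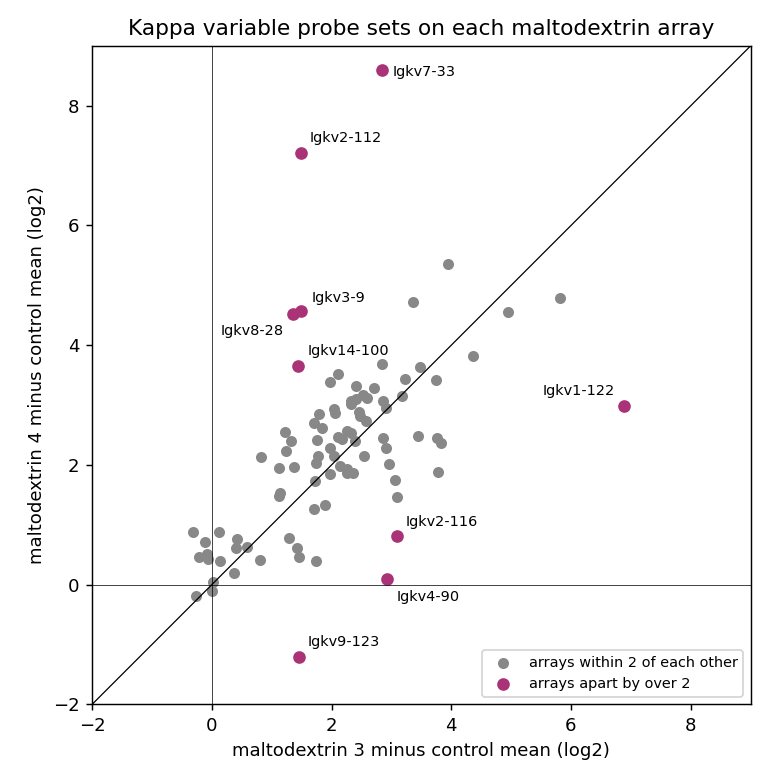
Each point is a kappa variable probe set, with its log2 intensity minus the control mean on maltodextrin 3 (horizontal axis) and on maltodextrin 4 (vertical axis), and the diagonal marks equal values. The 9 coloured and named points are apart by over 2 between the arrays, and Igkv7-33 and Igkv2-112 lie far above the diagonal while Igkv1-122 lies far below it.

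The control pair was also over 2 log2 units apart for 9 of the 93 kappa variable probe sets, against 1.71% of all named probe sets. By kind, it was so for 9.62% of kappa variable probe sets that can match several transcripts and 9.76% of those that match 1 only. Over all named probe sets these shares were 8.88% and 0.599%. All 9 were higher on control 1, and they were Igkv12-44, Igkv4-63, Igkv1-99, Igkv2-109, Igkv1-110, Igkv9-120, Igkv9-124, Igkv1-133 and Igkv1-135, named here after their values were seen apart from Igkv1-110 and Igkv1-135. The widest gap was that of Igkv4-63, with 10.01 on control 1 and 5.33 on control 2, against 7.55 and 8.39 on the maltodextrin arrays. Its difference of 0.30 had an SE of 1.57, and control 1 was the highest of the 4 arrays. Without control 2 the difference was -2.04. Igkv9-120 was 9.48 and 5.77 on the controls and 10.68 and 9.38 on the maltodextrin arrays, and Igkv2-109 was 10.73 and 7.19 against 11.49 and 12.14. For neither was the nominal criterion met.

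Only 2 of the 93 kappa variable probe sets had a difference below 0, and both were dim on every array. Igkv1-35 was 2.94 and 2.75 on the controls and 2.59 and 2.65 on the maltodextrin arrays, a difference of -0.23 (SE 0.18, limma adjusted p 0.574). Igkv2-95-2, which RefSeq lists as a pseudogene, was 2.68 and 2.52 against 2.61 and 2.49, a difference of -0.05 (SE 0.18, limma adjusted p 0.912) that was 0.015 after centring the arrays on their medians. In all, 12 of the 93 kappa variable probe sets lay below the background guide on all 4 arrays.

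The families differed in how evenly their members were higher. All 7 probe sets of Igkv6 met the nominal criterion, with differences from 1.95 to 4.75 and a median of 2.67, and Igkv6-13 was the brightest. All 4 of Igkv14 met it as well, from 1.02 to 5.30 with a median of 3.29, as did all 3 of Igkv10, from 1.49 to 2.09. In Igkv3, the family nearest to the joining segments, 8 of 9 met it and all 9 had both maltodextrin arrays above both controls, with a median of 2.35. Igkv3-3, at 1.47 (SE 0.58), was the exception.

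Igkv4, the largest family, had 17 of 25 probe sets past the nominal criterion and a median difference of 2.20, with Igkv4-55 the brightest. Most of its probe sets (21 of 25) can match several transcripts. In Igkv12 the criterion was met by 4 of 7 with a median of 2.68, in Igkv8 by 5 of 6 with a median of 2.36 and in Igkv5 by 3 of 4 with a median of 2.65. In Igkv1 it was met by 4 of 10 with a median of 1.30, although 8 of the 10 had both maltodextrin arrays above both controls. That family held 4 of the 9 probe sets with controls over 2 apart. In Igkv2 it was met by 1 of 5, with a median of 2.28, and in Igkv9 by 2 of 4, with a median of 1.87. Both Igkv17 probe sets met it. Of the families with a single probe set, Igkv7-33, Igkv11-125, Igkv13-84, Igkv15-103 and Igkv16-104 met it, with differences from 2.11 to 5.72. Igkv18-36, at 3.74 and 3.61 on the controls and 3.69 and 3.71 on the maltodextrin arrays, did not. Igk-V28, which has no family number, was 7.58 and 6.15 against 9.77 and 9.82 and met the criterion with a difference of 2.93 (SE 0.50).

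**Figure D3:**
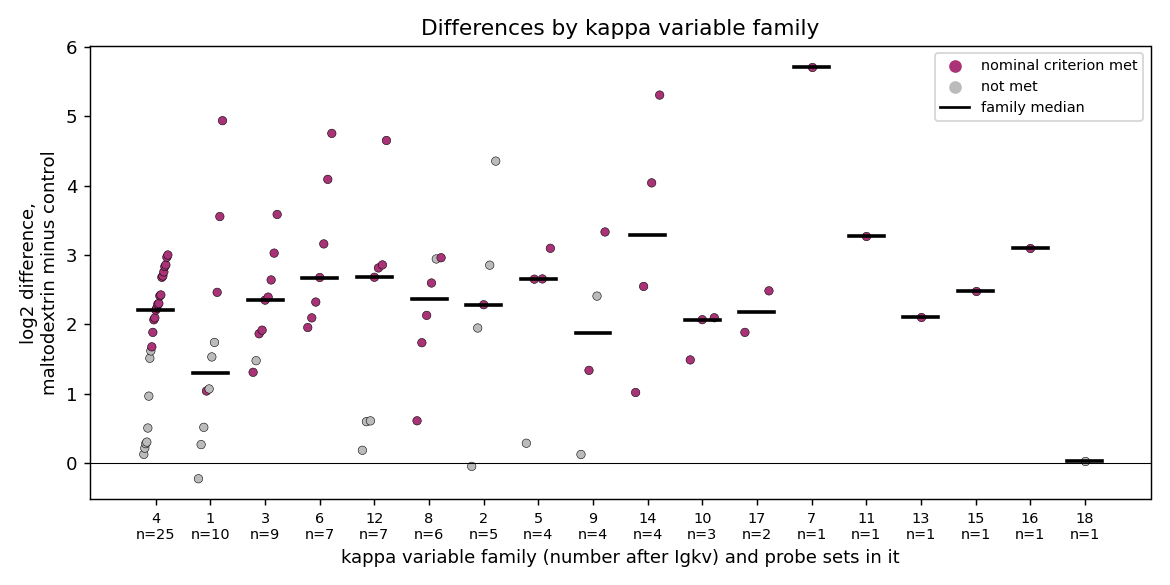
Difference in log2 intensity, maltodextrin minus control (vertical axis), of the kappa variable probe sets grouped by family (horizontal axis, with the number of probe sets). Coloured points met the nominal criterion, grey points did not, and black bars are family medians; the bars lie between 1.30 and 3.29 in the families with over 2 probe sets.

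RefSeq lists 86 of the placed kappa variable probe sets as V segments and 6 as V segment pseudogenes, a label for segments that do not encode a chain. The label is that of the C57BL/6J reference, and whether it holds in Balb/c was not tested. The nominal criterion was met by 64 of the 86, with a median difference of 2.31, and by 1 of the 6, with a median of 0.22. The control means of all 6 pseudogene probe sets were below the background guide. The exception among them was Igkv14-126, described above, with 10.33 and 9.31 on the maltodextrin arrays. Among kappa variable probe sets with a control mean below the guide, 16 of 33 met the criterion with a median difference of 1.47, and among those above it 50 of 60 did with a median of 2.37. Differences from below the guide start from background, so their sizes are less certain.

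Counts were also taken apart for probe sets that can match several transcripts and those that match 1 only. Among kappa variable probe sets, 42 of 52 of the first kind met the nominal criterion, with a median difference of 2.33, and 24 of 41 of the second, with a median of 2.09. Over all named probe sets the order was the reverse, with 4.06% of the first kind and 9.2% of the second higher by the criterion. The kappa variable probe sets that match several transcripts were also brighter, with a median of 8.71 on control 1 against 5.90. The difference between both kinds was not tested.

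Position along the locus did not order the differences. Spearman's rho between the difference and the distance from Igkc was -0.09 over 92 probe sets, a description across segments that share arrays and sequence. The placed segments were split by distance into 4 groups of 23. In the group nearest to Igkc, from 22.9 to 668 kb, 21 of 23 met the nominal criterion and all 23 had both maltodextrin arrays above both controls, with a median of 2.39. In the next 3 groups 16, 14 and 14 of 23 met it, with medians of 2.41, 2.07 and 2.41. From the nearest group to the farthest, which ran from 2301 to 3171 kb, the controls were over 2 apart for 0, 2, 1 and 6 of 23, with median gaps of 0.74, 0.61, 0.83 and 0.97. The differences between these groups were not tested. A run of 4 adjacent dim probe sets, picked out after the values were seen, lay between 715 and 783 kb from Igkc and held Igkv1-35, Igkv18-36, Igkv5-37 and Igkv12-38, with differences from -0.23 to 0.59.

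**Figure D4:**
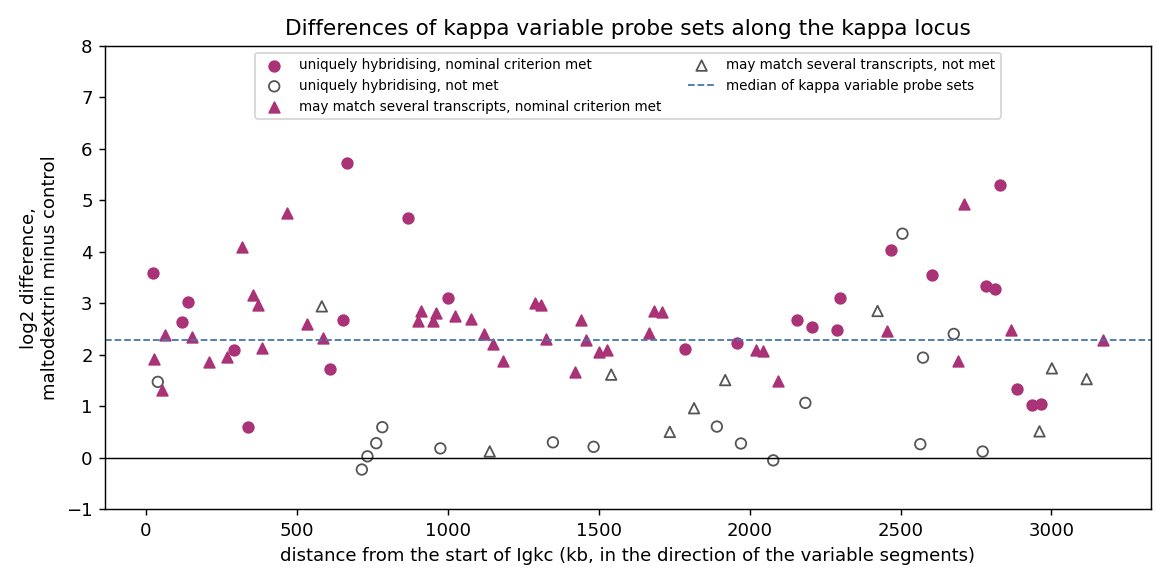
Difference in log2 intensity, maltodextrin minus control (vertical axis), of the kappa variable probe sets against the distance from Igkc in kb (horizontal axis), with circles for probe sets that match 1 transcript only, triangles for those that may match several, filled where the nominal criterion was met, and a dashed line at the median. Differences of 2 to 3 occur along the whole locus, and the values near 0 are scattered, with a short run between 715 and 783 kb.

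Contrasts within an array set kappa variable segments against the other classes. The mean of all 93 kappa variable probe sets minus Igkc was -6.30 and -6.52 on the controls and -4.97 and -4.86 on the maltodextrin arrays, a change of 1.49 that lay between 1.38 and 1.60 with any array left out. The same mean minus Iglc2 was -3.12 and -2.49 on the controls and -2.30 and -1.97 on the maltodextrin arrays, a change of 0.67 (0.99 without control 2, 0.36 without control 1). Igkc minus Iglc2 was 3.17 and 4.02 against 2.67 and 2.89, a change of -0.82 (-0.39 without control 2, -1.24 without control 1). In these 3 contrasts the groups were separated, and the exact permutation test over the 4 arrays gave a two-sided p of 0.33 for each, the smallest that 2 arrays against 2 allow. Minus the mean of the 4 lambda probe sets, the kappa variable mean was -4.10 and -2.71 against -2.93 and -2.80. There the groups overlapped, and the change of 0.54 was 1.23 without control 2 and -0.15 without control 1, so no change of kappa variable segments against lambda as a class was shown. These contrasts hold unequal change within an array only, and that of Igkc is read near the top of the scale.

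Heavy chain probe sets, found by the symbol in the file, gave counts of the same order. They include a probe set named Ighm that lies on the kappa segment Igkv8-27 by position. Its difference was 4.11, and it met the nominal criterion as higher. Of the 112, 70 met the criterion as higher and 0 as lower, against 8.51% and 3.56% of all named probe sets. Their median difference was 1.65, and of the 77 heavy chain variable probe sets 52 met it with a median of 1.78. The difference between heavy and light chains was not tested.

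Most markers of plasma cells were higher beside the light chains. The median difference of the 11 measured plasma cell genes was 1.02. The nominal criterion was met as lower by 0, against 3.56% of all named probe sets, and as higher by 6, against 8.51%. They were Tnfrsf17, the receptor for the survival factors BAFF and APRIL, at 2.61 (SE 0.55), Derl3, a gene of protein disposal in the endoplasmic reticulum, at 2.39 (SE 0.58), and Igj, the joining chain of polymeric antibodies, at 1.60 (SE 0.32). Xbp1, a transcription factor of secretory cells, was at 1.11 (SE 0.20), Slamf7, a surface receptor, at 0.95 (SE 0.31) and Prdm1, the Blimp-1 factor of plasma cells, at 0.70 (SE 0.25). Sdc1, the surface proteoglycan used to sort plasma cells and also made by epithelium, differed by -0.02 (SE 0.20). Mzb1, at 1.33 (SE 0.56), and Irf4, at 1.02 (SE 0.44), did not meet the criterion, though their groups were separated. Nor did Pou2af1, at 0.21 (SE 0.41), or Fkbp11, at 0.23 (SE 0.32) with a mean below the background guide, whose groups overlapped. The median over these genes was 7.16 and 6.79 on the control arrays and 7.74 and 8.31 on the maltodextrin arrays, in the same order of groups as the light chains.

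B cell genes had medians below the controls on both maltodextrin arrays, with the larger gap on maltodextrin 3. The median difference of the 12 genes was -0.94, with only Fcrla above 0, at 0.34 (SE 0.50). Of the 12, 0 met the criterion as higher, against 8.51% of all named probe sets, and 3 as lower, against 3.56%. The 3 were Cr2, a complement receptor, at -1.81 (SE 0.67), Pax5, the factor that keeps B cell identity, at -0.90 (SE 0.24), and Faim3, the IgM receptor, at -1.26 (SE 0.47). The median over the 12 was 8.68 and 8.17 on the controls, 6.63 on maltodextrin 3 and 7.92 on maltodextrin 4. The 6 lymphoid follicle genes, which include Cr2 and Fcer2a again, had medians of 8.05, 8.24, 6.34 and 7.70 in the same order. The part that the number of follicles in each piece of colon had in the light chain levels was not tested.

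Among the genes of IgA and antibody secretion, Igha, the IgA heavy chain constant region (named Igh-VJ558 in the file), was 10.20 and 9.31 on the controls and 10.69 and 11.88 on the maltodextrin arrays. Its difference was 1.53 (SE 0.52, limma adjusted p 0.316). Igj, of the same list, was 11.07 and 10.37 against 12.08 and 12.55. Ighg1, the IgG1 constant region, was 6.98 and 7.34 against 10.22 and 11.62, a difference of 3.75 (SE 0.50, limma adjusted p 0.224). The groups of these 3 genes, and those of Ighg2b and Ighg3, were separated. Of the 8 measured genes only Igha, Igj and Ighg1 met the nominal criterion, all as higher, against 8.51% of all named probe sets. The other constant regions did not meet it: Ighg3 (named Ighm in the file) differed by 1.08 (SE 0.48), Ighg2b by 0.82 (SE 0.35), Ighg2c by -0.05 (SE 0.22) and Ighm, the IgM constant region, by -0.30 (SE 0.80). Pigr, the epithelial receptor that carries IgA into the lumen, was 12.68 and 12.98 against 12.53 and 12.72, a difference of -0.20 (SE 0.20).

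The genes of light chain rearrangement stayed at background. The surrogate light chain genes Igll1, Vpreb1 and Vpreb2, which pair with heavy chains in precursor B cells, differed by -0.27 (SE 0.17), 0.24 (SE 0.37) and -0.22 (SE 0.18). Vpreb3, a related gene, differed by -0.10 (SE 0.21). Rag1 and Rag2, the recombinase that joins V to J, differed by -0.57 (SE 0.27) and -0.11 (SE 0.17), and Dntt, which adds bases at the joints, by -0.25 (SE 0.27). For these 7 genes 0 met the nominal criterion, and the mean intensity of each group, from 3.63 to 5.82, was below the background guide. The colon epithelium markers gave 0 of 6 past the criterion, and were bright on every array, with medians of 12.11, 12.32, 12.00 and 11.71.

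**Figure D5:**
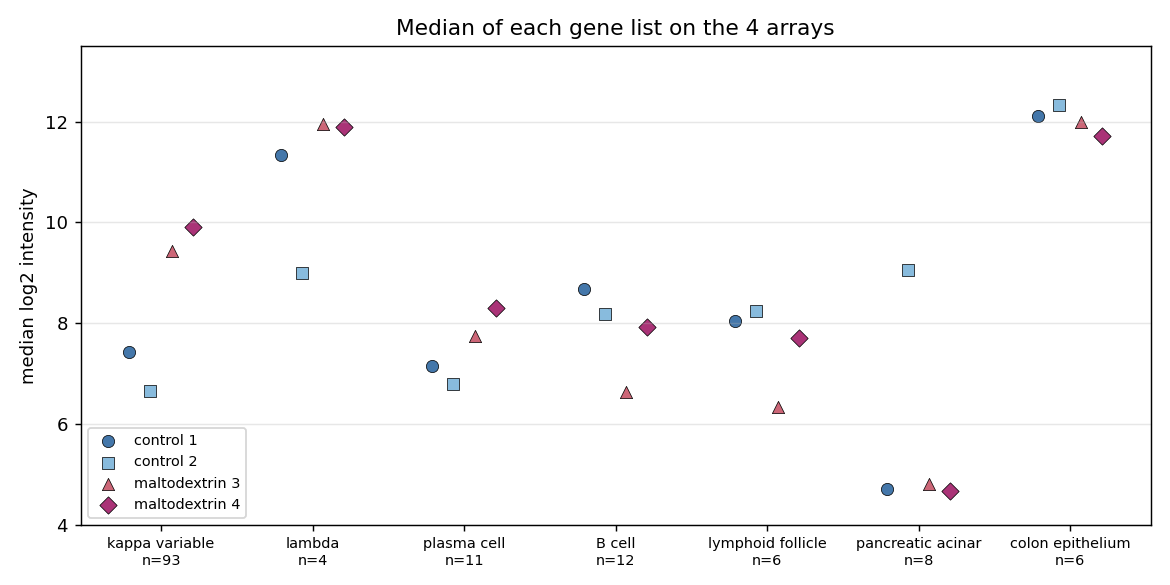
Median log2 intensity (vertical axis) of the light chain classes and of the marker lists on each of the 4 arrays. The kappa variable, lambda and plasma cell medians are highest on the maltodextrin arrays, the B cell and follicle medians are lowest on maltodextrin 3, and the pancreatic acinar median is high on control 2 alone.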

How the data were processed

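The deposited values are log2 intensities for 41345 probe sets on 4 arrays. The submitters' processing notes name Partek 6.6. How background, normalization and summarization were handled is not given in the sources used. The authors' deposited table of comparisons holds a ratio and a p-value for each probe set, per the file headers. On the log2 scale its ratios came within 5.4e-05 of the fitted differences. Its p-values came within 3.3e-05 of those from an equal-variance test, called the methods' t-test.

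Symbols, positions and the mark for probe sets that match several transcripts came from that table, and segments were named by position through the RefSeq gene table (GRCm38.p6). Marker genes with several probe sets were read from the brightest one. In R 4.3.3, limma 3.58.1 (lmFit, eBayes) fitted all 32202 named probe sets for the contrast of maltodextrin against control, with two-sided p-values adjusted by Benjamini-Hochberg, 2 residual and 2.62 prior degrees of freedom. The code was tested on simulated data. The number of arrays limits the precision.

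The members and gene lists were chosen with earlier results of these data known, and support nothing by themselves. The kappa variable probe sets named are the 8 brightest, the 8 with the largest positive differences and those below 0; every constant, joining and lambda probe set is named, and families are given with counts. Names outside this rule are marked as chosen after the values were seen, or are single cases of a count. Alternatives were a mean log2 of at least 5, repeated quantile normalization, median centring, all probe sets, trend and robust eBayes, the methods' t-test, the deposited values, a fold of at least 2, probe sets that match 1 transcript only, and each array left out. Naming by file symbol and the within-array contrasts over all 93 kappa variable probe sets, used in place of the brighter ones, were added after the data were seen. The sequences of the segments were not used here.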

Additional observations from a re-analysis of the deposited data

How the results depend on the processing

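The light chain probe sets higher by the nominal criterion numbered 71, and 33 by the methods' t-test and by the fold and p-value of the authors' deposited table; for kappa variable probe sets the counts were 66, 32 and 32, and for lambda 2, 0 and 0. With the fit made on probe sets that match 1 transcript only, the counts were 29 of 45, 26 of 41 and 1 of 2, and the light chain median difference was 1.73. With an array left out, the higher counts ran from 60 to 81 for light chain, 59 to 74 for kappa variable and 0 to 4 for lambda probe sets (4 without control 1, 0 without maltodextrin 3 or without maltodextrin 4). The lower counts ran from 0 to 1 for light chain and for kappa variable probe sets. The median differences ran from 1.67 to 2.57, 1.80 to 2.60 and 0.64 to 2.48 for the light chain, kappa variable and lambda probe sets.

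Of all named probe sets, 2739 were higher and 1148 lower; the methods' t-test gave 1261 and 354, as did the authors' deposited table. The counts were 957 and 437 at a fold of at least 2, and 564 were lower at a mean log2 of at least 5. With an array left out, the higher counts ran from 973 to 3860, the lower from 315 to 3903, and the counts past an adjusted p of 0.05 by limma from 0 to 905 (905 without control 1 and 671 without control 2, where the single control is taken to vary as the maltodextrin pair does). With an array left out, the difference changed sign in 11 of the 101 light chain probe sets, 0 of them at the nominal criterion. Among the segments named by rule these were Igkj3 (-0.10 to 0.71 with an array left out, below 0 without control 2 and, at -0.076, without maltodextrin 4), Iglv1 probe set 17329009 (-0.30 without control 2 to 2.38 without control 1) and Igkv2-95-2 (0.026 after repeated quantile normalization, 0.015 after centring, and -0.13 to 0.030 with an array left out). Igkv4-63, Igkv9-123 and Igkv1-99, named after their values were seen, were -2.04, -0.45 and -0.19 without control 2, and the cause was not tested. Of the other values of single named segments, 279 kept their side of the threshold, 31 lost it and 5 reached it. The within-array change of kappa variable segments against Iglc2 was 1.04 over the 73 with a mean above the guide (0.80 to 1.29 with an array left out), a set that 13 entered only through the maltodextrin arrays. It was 0.67 over all 93, as reported, and 0.78 over the 60 with a control mean above the guide. Naming by file symbol gave 67 kappa variable probe sets higher. Signal over background limits 33 of the 101 probe sets, whose control mean was below the guide of 5.89. No paired analysis was possible because the arrays are numbered in 1 series through both groups, so the groups share no replicate number.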

Other observations

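Another 6 probe sets lay on kappa variable segments by position but carried other symbols or none in the file, so the rule by symbol did not take them. They sat on Igkv19-93, Igkv1-88, Igkv8-27, Igkv6-25, Igkv8-24 and Igkv8-21. The file names the probe set on Igkv8-27 Ighm and that on Igkv8-24 Adck1, an unrelated kinase gene. All 6 had both maltodextrin arrays above both controls, with differences from 2.50 to 4.11 and a median of 3.33 on the log2 scale. Igkv8-27 was 5.91 and 5.38 on the controls, 11.02 on maltodextrin 3 and 8.496 on maltodextrin 4, and Igkv1-88 was 6.73 and 5.72 on the controls, 7.88 on maltodextrin 3 and 11.26 on maltodextrin 4. These 2 were again far apart between the maltodextrin arrays, in opposite directions. The probe set named Adck1 was 9.05 and 7.19 against 9.83 and 11.41.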
